A study of Mus musculus with 4 samples.

Results

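The very long gene loci described here are the rows of the deposited expression matrix whose locus spans at least 300 kb from its outermost start to its outermost end on a numbered autosome, and whose interval belongs to no other row. Of 23697 rows, 838 were this wide, 496 of them shared their interval with another row, 14 others lay off the numbered autosomes, and 328 remained. They came from 4 RNA libraries of WW6 cells, a mouse embryonic stem cell line of mixed C57/B6J, 129/Sv and SJL background that was kept on gelatin with leukemia inhibitory factor and without feeder cells. The 2 control libraries (A and B) came from cells given a small interfering RNA to GFP, called a mock control construct in the sample labels, and the 2 knockdown libraries (A and B) from cells given one to Kdm5b. Both groups had the same transient Lipofectamine transfection, and the time from transfection to harvest is not given in the sources used here. The series title puts the question as whether loss of Kdm5b opens promoters inside genes or alters transcription.

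Genes of this length consist almost wholly of intron, and a polymerase needs hours to cross them. Many encode adhesion molecules, receptors and ion channels of neurons, while others encode scaffold, trafficking and chromatin proteins that most cells use. Several lie at common fragile sites, where chromosomes break under replication stress. Kdm5b is a demethylase of histone H3 lysine 4, and the methyl mark it takes off is concentrated at the starts of active genes, many of which lie in stretches rich in the dinucleotide CpG.

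The sequence before the start of the gene was read for its CpG content, which the choice of loci did not use, and 7 examples show long loci that were expressed and long loci listed at 0 side by side. Each is the 250 bases before the outermost start that has a RefSeq promoter window, on the plus strand of GRCm38.p6, and is written 5′ to 3′ with every CpG in capitals. This build is later than the mm9 coordinates of the matrix. The RefSeq gene is longer than the locus in some, Nrxn3 among them. A window therefore need not lie at the start of the gene or of the measured locus, and this was not checked. Adk (chr14:21052324-21052573), Exoc4 (chr6:33248878-33249127) and Ptprk (chr10:28074570-28074819) are the long loci of highest level with 1 symbol and a window, Fto (chr8:91313275-91313524) is the one with the smallest p between groups, and Nrxn3 (chr12:88794254-88794503), Opcml (chr9:27791049-27791298) and Cntn4 (chr6:106118515-106118764) are the widest of those listed at 0 in every library.

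Adk: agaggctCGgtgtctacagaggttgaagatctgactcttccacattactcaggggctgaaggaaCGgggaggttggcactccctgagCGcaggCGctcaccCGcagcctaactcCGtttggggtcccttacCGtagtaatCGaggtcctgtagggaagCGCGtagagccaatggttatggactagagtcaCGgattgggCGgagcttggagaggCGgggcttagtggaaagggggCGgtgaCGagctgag
Exoc4: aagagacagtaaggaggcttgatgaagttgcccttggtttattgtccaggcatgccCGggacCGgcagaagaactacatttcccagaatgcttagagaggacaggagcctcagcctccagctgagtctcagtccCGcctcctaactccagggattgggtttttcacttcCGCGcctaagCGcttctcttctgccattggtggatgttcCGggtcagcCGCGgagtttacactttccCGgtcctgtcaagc
Ptprk: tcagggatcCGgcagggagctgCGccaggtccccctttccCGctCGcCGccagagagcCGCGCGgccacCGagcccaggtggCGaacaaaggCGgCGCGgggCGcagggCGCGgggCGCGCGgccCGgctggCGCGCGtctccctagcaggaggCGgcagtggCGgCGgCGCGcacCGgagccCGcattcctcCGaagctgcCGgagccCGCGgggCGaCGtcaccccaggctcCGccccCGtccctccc
Fto: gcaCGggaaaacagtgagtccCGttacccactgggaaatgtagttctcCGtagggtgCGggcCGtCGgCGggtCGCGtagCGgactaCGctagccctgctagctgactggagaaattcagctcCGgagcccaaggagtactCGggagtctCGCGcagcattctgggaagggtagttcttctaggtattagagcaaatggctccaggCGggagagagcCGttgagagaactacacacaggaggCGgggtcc
Nrxn3: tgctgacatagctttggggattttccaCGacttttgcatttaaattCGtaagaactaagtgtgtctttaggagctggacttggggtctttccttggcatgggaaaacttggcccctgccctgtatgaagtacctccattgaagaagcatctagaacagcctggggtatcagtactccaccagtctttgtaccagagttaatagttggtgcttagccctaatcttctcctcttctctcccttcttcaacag
Opcml: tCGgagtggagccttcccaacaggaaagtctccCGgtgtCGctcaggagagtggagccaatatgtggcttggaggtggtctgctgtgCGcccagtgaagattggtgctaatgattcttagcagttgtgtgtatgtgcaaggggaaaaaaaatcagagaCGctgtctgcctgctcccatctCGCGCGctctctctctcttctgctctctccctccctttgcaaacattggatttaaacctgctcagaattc
Cntn4: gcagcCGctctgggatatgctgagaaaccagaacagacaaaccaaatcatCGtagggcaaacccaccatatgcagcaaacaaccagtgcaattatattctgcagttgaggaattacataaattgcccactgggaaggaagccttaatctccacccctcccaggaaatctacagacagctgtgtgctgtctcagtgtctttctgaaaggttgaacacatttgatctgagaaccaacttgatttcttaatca

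The Ptprk window holds 38 CpG, the Fto window 18, the Adk window 15 and the Exoc4 window 10, against 2 in Nrxn3, 8 in Opcml and 2 in Cntn4. The 10 CpG of Exoc4 give an observed to expected ratio of 0.533 at 54.8% GC. Opcml has a ratio of 0.473, close to that of Exoc4.

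A window was found for 243 of the 318 long loci with 1 symbol. Calling a window CpG rich at 55% GC or more and an observed to expected CpG ratio of at least 0.6, 46 of 74 windows of expressed long loci (62.2%) were CpG rich, against 66 of 138 (47.8%) of those detected at a mean under 1 FPKM and 7 of 31 (22.6%) of those at 0 throughout. FPKM counts the fragments on each kilobase of a transcript relative to the size of the library, and a locus whose 4 libraries average 1 FPKM or more is called expressed here. The median CpG ratio followed the same order, at 0.76, 0.63 and 0.47. Narrower loci showed a steeper version of this order, with 58.2% CpG rich when expressed, 26.6% when detected below 1 FPKM and 2.81% when at 0, and the share over all 27025 genes with a window was 27.8%. These shares describe the genes and were not tested.

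**Figure D1:**
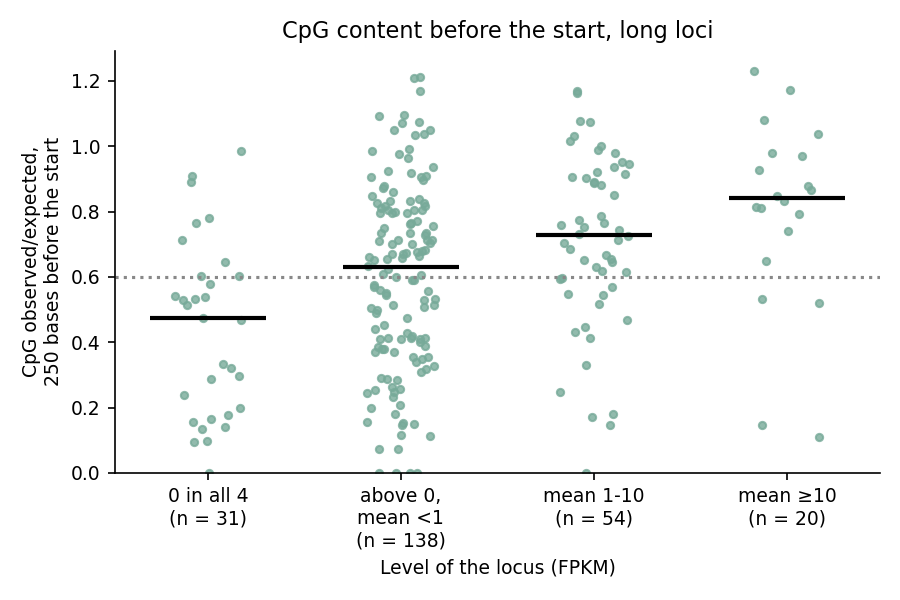
CpG observed to expected ratio (vertical axis) in the 250 bases before the start of 243 long loci, by level class in FPKM (horizontal axis); each point is 1 locus, bars are medians and the dotted line is the ratio of 0.6 used to call a window CpG rich. The medians are 0.47 for loci at 0 in all libraries, 0.63 for those detected below a mean of 1, 0.73 for means of 1 to 10 and 0.84 for means of 10 or more.

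Short motifs were searched on both strands of the same windows as descriptions of their letters. TATAAA was in 2 of 74 windows of expressed long loci (2.70%) and in 1 of 31 at 0 (3.23%), against 6.18% of expressed loci under 300 kb and 13.0% of all genes. GGGCGG, which itself contains a CpG, was in 55.4% of the expressed long loci and 35.5% of those at 0, against 61.8% of expressed loci under 300 kb and 33.0% of all genes. CCAAT was in 36.5% and 19.4%, against 37.8% of expressed loci under 300 kb and 34.5% of all genes. CACGTG, also with a CpG inside, was in 5.41% and 9.68%, against 9.07% and 6.04%. None of the 4 motifs contains another. Of the printed windows, Adk holds CCAAT and GGGCGG, Exoc4 and Opcml hold CCAAT, Ptprk holds GGGCGG, and Fto, Nrxn3 and Cntn4 hold none of the 4.

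The 328 loci were spread over all 19 autosomes, from 5 on chromosome 19 to 35 on chromosome 1, and 315 were annotated as protein coding and 3 as long noncoding RNA. Their widths ran from 300.6 to 2271 kb with a median of 418 kb. The 324 with a known transcript length had a median transcript of 4919 bases, which was 1.11% of the locus, against 2289 bases and 15.5% over all autosomal loci with an interval of their own. No other row overlapped any of them. In 316 of the 318 with 1 symbol the gene also spans at least 300 kb in the RefSeq table. The locus need not be the whole gene: the span was within 10% of the locus width in 275 of the 318 and at least 1.5 times as large in 16. Tenm3 has a locus of 449 kb in a gene of 1297 kb, Dab1 377 kb in 1125 kb and Robo1 383 kb in 1020 kb. In such loci the promoter window may lie away from the start of the measured interval.

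In the libraries themselves, the embryonic stem cell markers were all present, with 10 of 10 averaging 1 FPKM or more and a summed level of 3601 to 4745 FPKM per library. Of the other marker lists, 6 of 12 neuron markers reached a mean of 1 FPKM (summed 140 to 254 FPKM), with Stmn2 and Tubb3 the highest and Dcx, Rbfox3 and Snap25 at means of 0.0067, 0.091 and 0.18. Neural progenitor markers reached it in 4 of 8 (35.9 to 58.3), fibroblast markers in 2 of 8 (0.258 to 9.39, Lum at 0) and muscle markers in 2 of 8 (2.03 to 6.37, Tnnt2 at 0). Primitive endoderm markers reached it in 4 of 8 and summed to 11.9 and 17.0 FPKM in the controls against 3.64 and 3.24 in the knockdowns, and their part in the results below was not tested. Kdm5b itself measured 99.7 and 145 FPKM in the control pair and 22.7 and 31.1 in the knockdowns, a log2 fold change of -2.14 (SE 0.30) with an adjusted limma p of 0.562, so the targeted gene itself was not called. Depth, estimated from the steps between low FPKM values, was 102% of control B in control A, 76.5% in knockdown A and 98.8% in knockdown B.

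Most long loci were detected at least once, and few were expressed. Across the 4 libraries 45 were listed at 0 throughout, 184 were detected at a mean under 1 FPKM and 99 (30.2%) reached a mean of 1 FPKM, of which 25 reached 10. Within the set the share at a mean of 1 FPKM or more was lower among wider loci: 77 of 225 loci of 300 to 500 kb (34.2%), 22 of 103 of 500 kb or more (21.4%) and 0 of 16 of 1000 kb or more. By the span of the gene in the RefSeq table in place of the locus, 3 of 24 of 1000 kb or more were expressed, Tenm3, Dab1 and Robo1. By comparison 34.4% of loci under 10 kb, 60.3% of those of 10 to 30 kb, 63.9% of those of 30 to 100 kb and 59.8% of those of 100 to 300 kb reached a mean of 1 FPKM. Expressed long loci were also lower, with a median of 5.74 FPKM against 8.51 at 100 to 300 kb and 12.7 to 14.1 in the 3 narrower classes. The share at 0 in every library, 13.7%, was above that of the 100 to 300 kb class (9.21%), near that of the 30 to 100 kb class (13.2%) and under the 18.6% at 10 to 30 kb and the 44.3% under 10 kb.

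**Figure D2:**
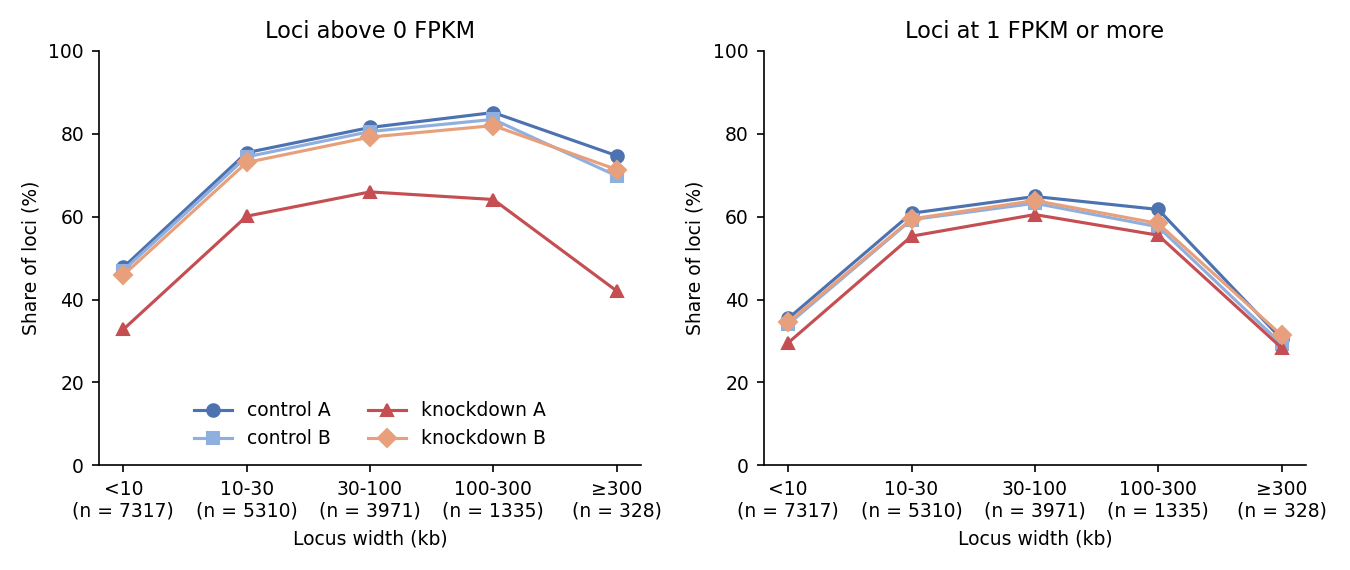
Share of loci (vertical axis, percent) above 0 FPKM (left) and at 1 FPKM or more (right) in each library, by locus width class in kb (horizontal axis) with the number of loci below. Knockdown A, at 42.1% of the loci of 300 kb or more, sits under the 69.8% to 74.7% of the other libraries on the left, while the 4 libraries lie at 28.4% to 31.4% on the right.

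Per library, 245 long loci were above 0 FPKM in control A (74.7%), 229 in control B (69.8%), 138 in knockdown A (42.1%) and 234 in knockdown B (71.3%). Knockdown A was therefore the library with fewest, and knockdown B lay between the controls, so the groups overlapped. At 1 FPKM or more the counts were 100, 96, 93 and 103, and at 0.1 FPKM or more 194, 180, 120 and 185. The pattern seen most often after detection in all 4 libraries (125 loci) was detection in every library but knockdown A (67 loci). Loci of 100 to 300 kb showed a gap of the same kind, with 64.1% above 0 in knockdown A against 81.9% to 85.1% in the others. At like control levels the share above 0 in knockdown A was higher for long loci than for narrower ones in each bin up to a control mean of 10 FPKM, and was 27 of 28 against 5103 of 5156 beyond. At a control mean of 0.3 to 1 FPKM 48.7% of long loci were above 0 in knockdown A against 29.7% of loci under 300 kb, and at 1 to 3 FPKM 84.8% against 61.9%. Knockdown B had the same order, at 97.4% against 78.0% and 100% against 96.3%. Long loci have longer transcripts (median 4919 bases, against 2289 over all autosomal loci with their own interval). These hold more fragments at a like FPKM, and their part was not tested. The lower depth of knockdown A moves with its own counts, and the part of depth in them was not tested.

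These low values rest on few fragments. In the median long transcript 1 fragment stood for about 0.0486 FPKM in control A, 0.0497 in control B, 0.0650 in knockdown A and 0.0503 in knockdown B, and the 181 loci detected below a mean of 1 FPKM with a known length held a median of 6.95 estimated fragments over all 4 libraries. Of 44 loci seen in 1 library only, 18 were seen in control A, 10 in control B, 15 in knockdown B and 1 in knockdown A, and 20 of the 44 rested on under 1.5 estimated fragments. A 0 in such a locus does not show absence of the RNA, and an exact 0 can also be an estimate that failed. Among the 184 loci detected below a mean of 1, knockdown A listed 139 (75.5%) at 0 against 38 in control A, 54 in control B and 49 in knockdown B. The 45 it did detect had a median of 0.400 FPKM there, against 0.187 among those detected in control A, 0.141 in control B and 0.159 in knockdown B. The share of its detected loci in which a library was the highest of the 4 was 51.1% in knockdown A, 50% in control A, 43.0% in knockdown B and 23.1% in control B. Loci under 300 kb at such levels were at 0 in knockdown A in 83.5%, but those it detected had a median of 0.312 FPKM. This was under the 0.358 of control A and the 0.346 of knockdown B and above the 0.297 of control B. Among them, those of 100 to 300 kb were like the long loci. Their median was 0.392 FPKM where knockdown A detected them, against 0.281 in control A, 0.221 in control B and 0.299 in knockdown B.

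The widest loci of all had low levels. Ptprd, a receptor tyrosine phosphatase at synapses and the widest at 2271 kb, stood at 0.329 FPKM in control A, 0.104 in control B, 0 in knockdown A and 0.448 in knockdown B. Cntnap2, a neurexin-related adhesion protein, stood at 0.140, 0.358, 1.11 and 0.509, so that only knockdown A passed 1 FPKM. Nrxn3, a presynaptic neurexin, was listed at 0 in all 4. Magi2, a membrane-associated scaffold protein with PDZ domains, was the highest of the 16 loci of 1000 kb or more at 1.38, 0.695, 0.955 and 0.575 FPKM. Opcml, Dcc, Csmd3 and Cntn4, also of that width, were at 0 throughout.

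The widest expressed locus was Wwox, which encodes an oxidoreductase with WW domains at a fragile site, at 913 kb (mm9, chr8:116963551-117876612). It measured 6.62 and 6.32 FPKM in the control pair and 5.31 and 9.17 in the knockdowns, which enclose both controls. Erc2, an active zone scaffold of 856 kb, stood at 0.961, 1.34, 0.616 and 1.80 in the same library order, and Camta1, a calmodulin-binding transcription activator of 802 kb, at 4.02, 3.75, 7.44 and 1.56. In both the knockdown libraries lay on opposite sides of the controls. At the width limit, Jazf1 (300.6 kb) stood just inside at 3.07, 1.19, 2.33 and 1.38 FPKM and Akap13 (299.1 kb) just outside at 6.52, 5.23, 3.50 and 5.68. Ranbp17 (302.0 kb) was the next inside at 24.9 to 28.9 FPKM, and AW554918 (298.3 kb) the next outside at 2.17 to 4.61. Just under the level limit stood Ryr2 (1.57, 0.683, 0.618 and 1.12), Gria4, Otud7a, Magi2 and Cdk14.

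The highest long loci included genes that most cells use. Adk, adenosine kinase (mm9, chr14:21871795-22267791), measured 49.5 and 83.7 FPKM in the control pair and 73.5 and 73.3 in the knockdowns, a control mean of 66.6 ± 24.2 (SD, n = 2), and the control pair enclosed both knockdowns. Exoc4, a subunit of the exocyst that tethers secretory vesicles (mm9, chr6:33199149-33922930), stood at 58.8 and 64.2 against 67.5 and 74.8, both knockdowns higher, with a log2 fold change of 0.21 (SE 0.22). Dlc1, a GTPase-activating protein, stood at 41.3 and 54.7 against 57.6 and 46.6, and Ptprk, a receptor tyrosine phosphatase (mm9, chr10:27794625-28317203), at 47.6 and 43.5 against 42.6 and 39.3. The Ptprk knockdowns lay just under the controls, with a log2 fold change of -0.15 (SE 0.23). Stag1, a cohesin subunit, stood at 36.2 and 37.4 against 27.9 and 38.9 FPKM, and Utrn, which links actin to the membrane, at 29.9 and 26.2 against 28.1 and 34.2. Mad1l1, a spindle checkpoint protein, stood at 24.5 and 24.9 against 27.4 and 27.1, both knockdowns higher, a log2 fold change of 0.14 (SE 0.25). Ranbp17, Diaph3, a formin that nucleates actin, and Babam2, a subunit of a deubiquitinating complex that acts at DNA breaks, had levels of 19.9 to 29.3 FPKM and overlapping groups. Rows that join several gene symbols in 1 locus, Iqcj/Iqschfp/Schip1 (44.1 to 71.1 FPKM) and Zfp982/Zfp991 (22.4 to 48.5), were as high, and their fragments cannot be assigned to one of the genes.

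**Figure D3:**
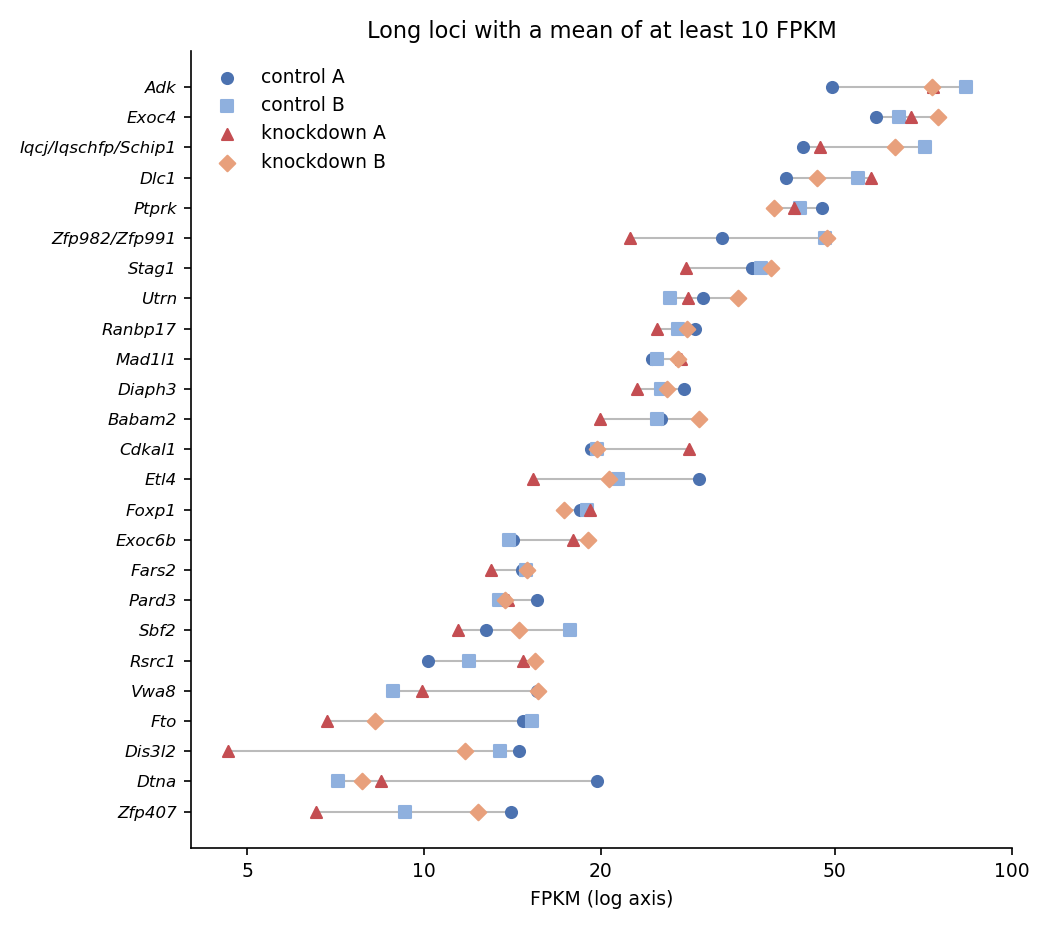
FPKM (horizontal log axis) of the 25 long loci averaging 10 FPKM or more, 1 row per locus and 1 point per library, joined by a line from lowest to highest. Fto is a row in which both knockdown libraries (6.84 and 8.26) sit well below both controls (14.7 and 15.2), while in Adk the controls enclose the knockdowns.

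Gene lists written from general knowledge of long genes show which roles were expressed. Of 34 long loci for neuronal and homophilic adhesion, 10 were at 0 throughout, 21 were detected below a mean of 1 FPKM and 3 (8.82%) were expressed, namely Robo1, the receptor for Slit guidance cues, Dab1, the adaptor of Reelin signalling, and Tenm3, a teneurin. Of 28 neurotransmitter receptor and ion channel loci 1 was expressed (3.57%), the calcium channel subunit Cacna2d1, at 1.48 and 0.964 FPKM in the controls and 2.69 and 1.24 in the knockdowns. Of 21 loci for extracellular matrix and large secreted or endocytic receptor proteins 2 were expressed, St6galnac3 and Ltbp1. St6galnac3 was counted on this list although it is a sialyltransferase and no matrix protein or receptor. Receptor tyrosine phosphatases and kinases and their ligands gave 2 of 10, Ptprk and Ptprg, the latter at 4.17 to 7.06 FPKM. RNA-binding proteins gave 1 of 4, Dis3l2.

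By contrast 18 of 32 long loci for cytoskeleton, polarity and scaffold proteins (56.2%) and 10 of 22 for transcription and chromatin regulators (45.5%) were expressed, against 30.2% of all long loci. The scaffold list was led by Exoc4, Utrn and Exoc6b, with the polarity protein Pard3 at 13.4 to 15.5 FPKM. The transcription list was led by the forkhead factor Foxp1 at 18.4, 18.9, 19.1 and 17.3 FPKM, a locus with nearly the same level in all 4 libraries (log2 fold change -0.03, SE 0.27), then by Zfp407 and the methyltransferase gene Smyd3. Signalling genes gave 6 of 21 (28.6%) and fragile site genes 4 of 11, Exoc4, Wwox, Dab1 and the gephyrin gene Gphn. Of the 155 long loci on no list, 55 were expressed (35.5%), among them Adk, Dlc1 and Stag1.

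The comparison of knockdown with control asks whether expressed long loci changed when Kdm5b was depleted. None of the 99 was called by limma at an adjusted p under 0.05, against 4 of all 11784 loci tested (0.0339%), all 4 of them lower in the knockdown. At an unadjusted limma p under 0.05, 1 of the 99 was lower and 0 were higher, against 1.49% and 0.967% of all loci tested. The median log2 fold change of the 99 was -0.07, against -0.03 for all loci tested and -0.08 for those of 100 to 300 kb. The sign of the long-locus median was reversed by quantile normalization (0.07) and without knockdown A (0.02). The median over all loci tested changed sign in the same settings, to 0.025 and 0.006. The fold was negative in 63 of the 99 (63.6%), against 52.9% of all loci tested and 57.9% of those of 100 to 300 kb. The 95% interval of the log2 difference lay wholly between -1 and 1 in 17 of the 99 (17.2%), against 32.8% of all loci tested, so that for the remaining 82 these libraries do not bound the change to less than 2-fold on this scale. With 2 libraries a group an exact permutation test of 1 locus cannot go below p = 0.33. These are bulk libraries, so fewer cells of a kind and less RNA in each cannot be told apart.

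Both knockdown libraries lay outside the range of the controls in 35 of the 99 loci (35.4%, against 31.9% of all loci tested), 18 below it (background 16.9%) and 17 above it (background 15%). These shares lie near the background. With a log2 fold change of at least 1 in size besides, 4 were lower (background 3.9%) and 1 was higher (background 1.37%). The 1 higher, Marchf1, had a control mean of 0.367 FPKM and passed the filter on mean level only through knockdown A. Of the 4 lower, St6galnac3 passed it through its control mean of 2.45 FPKM, with a knockdown mean of 0.606. In 22 of the 35 the knockdown libraries were closer to each other than the group means were, 11 on each side. The same share over all loci tested was not computed, so this count is not read as a trait of long loci. By level, the median log2 fold change was -0.09 for the 31 long loci with a mean of 1 to 3 FPKM, -0.07 for the 43 of 3 to 10 and -0.06 for the 25 of 10 or more, while over all loci tested it ran from -0.22 through -0.12 to 0.02.

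**Figure D4:**
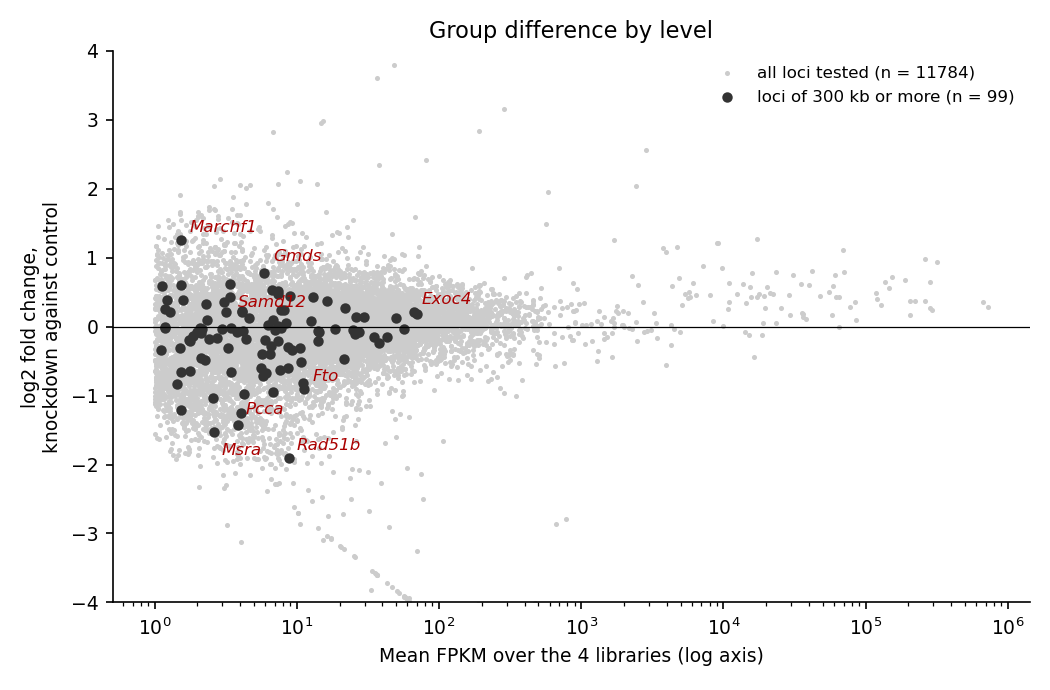
Log2 fold change of knockdown against control on log2(FPKM + 1) (vertical axis) against mean FPKM (horizontal log axis) for 11784 loci tested (grey) and the 99 long loci among them (dark), with 34 loci beyond the axis limit of 4 not shown. The long loci lie within the cloud of all loci, between Rad51b at -1.91 and Marchf1 at 1.25.

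Of the loci below the control range, Fto had the smallest p. Fto, an RNA demethylase whose introns are known for long-range enhancers (mm9, chr8:93837423-94192332), measured 14.7 and 15.2 FPKM in the control pair, against 6.84 and 8.26 in knockdowns A and B. The knockdowns averaged 7.55 ± 1.00 FPKM and the controls 15.0 ± 0.345 (SD, n = 2 each), a share of 50.4%, at an estimated 75.0 to 218 fragments per library. Its log2 fold change was -0.91 (SE 0.30), with an unadjusted limma p of 0.0241 and an adjusted p of 0.918, and ran from -1.03 to -0.79 as each library was left out. Fto was counted on the signalling list, although it demethylates RNA and is no kinase.

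The 7 further named loci below the control range were set lowest by knockdown A. Msra, a methionine sulfoxide reductase, stood at 3.83 and 4.42 FPKM in the controls, 0 in knockdown A and 2.15 in knockdown B. Its log2 fold change of -1.53 (SE 0.69) became -0.70 without knockdown A. Pcca, a subunit of propionyl-CoA carboxylase, stood at 5.18 and 6.26 against 0.377 and 3.52, with a log2 fold change of -1.42 (SE 0.66) that became -0.57 without knockdown A. Fggy, a carbohydrate kinase, stood at 6.94 and 4.93 against 0.894 and 3.34, and its log2 fold change of -1.26 (SE 0.56) became -0.66 without that library. St6galnac3, a sialyltransferase, stood at 2.45 in both controls against 0 and 1.21, and its log2 fold change of -1.21 (SE 0.67) became -0.64. Apbb2, an adaptor that binds the amyloid precursor protein, stood at 10.7 and 7.65 against 3.04 and 5.71, with -0.95 (SE 0.42) becoming -0.58.

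Dis3l2, an exonuclease that degrades uridylated RNA, stood at 14.5 and 13.4 FPKM against 4.64 and 11.7, and its log2 fold change of -0.82 (SE 0.45) became -0.23 without knockdown A. Tcf4, a basic helix-loop-helix factor, stood at 9.15 and 9.78 against 4.74 and 7.0, with -0.63 (SE 0.35) becoming -0.39. In all 7 knockdown B also lay under both controls, as the choice of these loci required, and the adjusted limma p of each was 0.918. Over all 18 loci below the range, knockdown A was the lowest library in 14, and over the 17 above it the highest in 8. In such loci 1 of the knockdowns is always the lowest or the highest library. The same shares over all loci tested were not computed.

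Among the 17 loci above the control range, Gmds, which makes GDP-fucose from GDP-mannose, had the smallest p. It measured 4.15 and 3.89 FPKM in the control pair and 9.93 and 5.74 in the knockdowns, a log2 fold change of 0.78 (SE 0.41) that became 0.43 without knockdown A. Marchf1, a membrane ubiquitin ligase of 854 kb, stood at 0.363 and 0.371 against 4.44 and 0.942, or about 4.71 estimated fragments in each control against 43.2 and 11.8, and its log2 fold change of 1.25 (SE 0.74) became 0.51 without knockdown A. Prickle2, a planar polarity protein, was alike at 0.961 and 0.955 against 2.91 and 1.26, with 0.60 (SE 0.61) becoming 0.21. Marchf1 and Prickle2 had controls under 1 FPKM and passed the filter on mean level only through the knockdowns, Marchf1 only through knockdown A. Their place among expressed loci thus leans on the group in which they are high.

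The other 5 named loci above the range had knockdown libraries closer to each other than the group means were. Exoc6b, a second exocyst subunit, stood at 14.2 and 14.0 FPKM against 17.9 and 19.0, a log2 fold change of 0.37 (SE 0.27) that ran from 0.33 to 0.41 as libraries were left out. Scfd2, a protein of the family that guides vesicle fusion, stood at 5.73 and 4.79 against 7.62 and 8.48, and Rsrc1, a splicing-related protein, at 10.1 and 11.9 against 14.8 and 15.4. Slc39a11, a zinc transporter, stood at 5.02 and 6.74 against 7.91 and 9.61, and Magi1, a junctional scaffold, at 4.98 and 7.23 against 7.71 and 9.78. The log2 fold change of Slc39a11, 0.51 (SE 0.35), became 0.33 without control A, and that of Magi1, 0.47 (SE 0.37), became 0.24. The knockdown means were 131% to 153% of the control means in these 5 loci, and the adjusted p of each was 0.918.

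By role, no list held a called locus, and the counts below stand beside 16.9% of all loci tested below the control range and 15% above it. Scaffold genes had 3 below and 5 above the control range among 18 expressed, with a median log2 fold change of -0.02. Transcription and chromatin regulators had 2 below, Tcf4 among them, and 0 above among 10, with a median of -0.33. Signalling genes had 2 below and 1 above among 6. The 3 expressed adhesion loci all overlapped, and the loci on no list had 8 below and 11 above among 55.

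The 4 libraries did not spread alike. Knockdown A was the lowest of the 4 libraries in 48 of the 99 loci (48.5%, against 38.4% of all loci tested). Control A was the lowest in 14 (14.1%, against 26.2%), control B in 23 (23.2%, against 18.1%) and knockdown B in 14 (14.1%, against 16.3%). In 20 long loci knockdown A lay at least 2-fold below the median of the other 3 on the log2(FPKM + 1) scale, as in 15.3% of all loci tested. This happened in 0 long loci for any other library (1.71% to 1.89% of all loci tested). In 3 knockdown A lay at least 2-fold above that median (6.54% of all loci tested), as control A did in 2 (4.94%). The controls were 2-fold apart in 3 of the 99 (3.03%, against 7.20% of all loci tested), and control B and knockdown B in 0 (against 3.93%). The knockdown pair was 2-fold apart in 22 (22.2%, against 21.7% of all loci tested). Against the control mean, the median difference was -0.19 in knockdown A and 0.02 in knockdown B, against -0.04 and 0.01 over all loci tested. Tested loci of 100 to 300 kb were near the long loci in this, at -0.16 and 0.02.

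**Figure D5:**
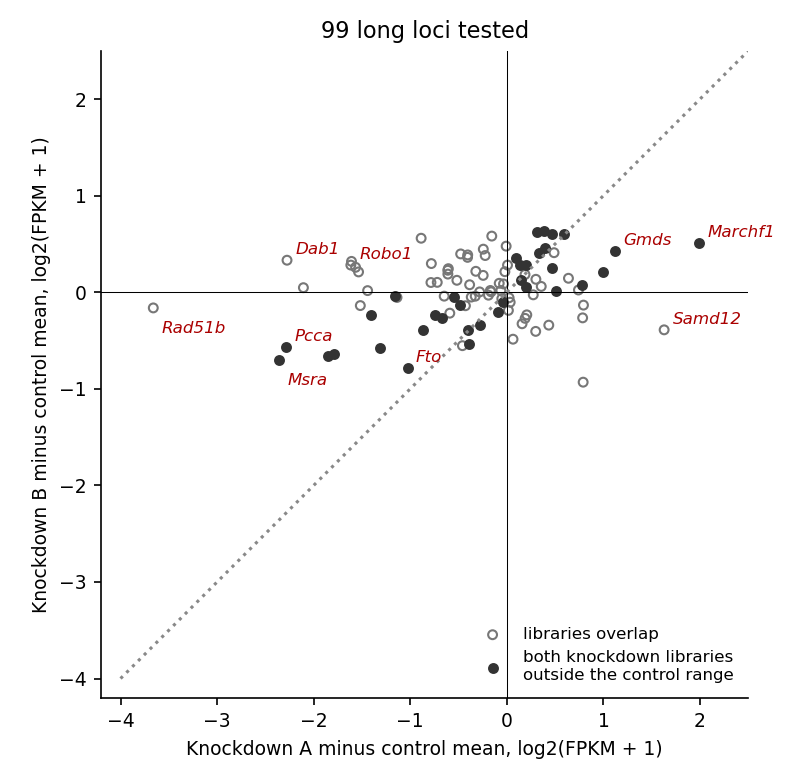
Difference from the control mean in log2(FPKM + 1) of knockdown A (horizontal axis) and knockdown B (vertical axis) for the 99 expressed long loci, where filled points are the 35 loci whose knockdowns both fall outside the controls and the dotted line marks equal differences. Points spread far wider along the axis of knockdown A, with Rad51b, Dab1 and Robo1 far left and Samd12 to the right, while Fto lies near the line.

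The loci that stand apart in knockdown A alone show this by name, and were chosen after their values were seen. Rad51b, a DNA repair protein, stood at 16.7 and 8.03 FPKM in the controls, 0 in knockdown A and 10.3 in knockdown B. Dab1 stood at 3.97, 6.21, 0.236 and 6.53 in the same order, and Robo1 at 7.46, 6.5, 1.60 and 8.68. In these 3 knockdown B lay within or above the controls. Ltbp1, which binds latent TGF-beta in the matrix, stood at 2.31, 1.71, 0.0460 and 1.72. In the other direction, Samd12 stood at 2.47, 1.58, 8.24 and 1.28, with knockdown B under both controls.

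Among the 99 expressed loci 6 were listed at 0 in knockdown A (6.06%, against 7.91% of all loci tested), and 0 in each of the other libraries. Besides Msra, Rad51b and St6galnac3 they were Ebf1, a transcription factor of B cells at 4.31, 2.49, 0 and 3.45 FPKM, Megf11, an adhesion protein with EGF repeats at 1.92, 1.88, 0 and 2.35, and Ube2e2, a ubiquitin-conjugating enzyme at 1.35, 2.96, 0 and 2.80. Rad51b held an estimated 117, 55.0 and 69.8 fragments in control A, control B and knockdown B. Knockdown A was also the shallowest library, and the part of its depth in these zeros was not tested.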

How the data were processed

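Per the labels' protocols, Trizol RNA was rid of ribosomal RNA, primed with oligo-dT and random hexamers, and made into strand-marked libraries. The authors deposited 1 table of FPKM per locus and library, made with Cufflinks and Cuffdiff on mm9, per the submitters' processing notes. The aligner, tool versions and strand setting of the counting are not given in these sources, and antisense or overlapping transcripts may share fragments. Symbols, spans and promoter windows came from RefSeq tables of GRCm38.p6.

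Tests used the 11784 loci averaging 1 FPKM or more and the scale log2(FPKM + 1), on which changes of low loci look smaller than they are, in limma 3.58.1 in R 4.3.3 (group alone, eBayes with trend, two-sided, Benjamini-Hochberg over all loci, threshold 0.05). The code was tested on simulated data. Counts, medians and figures were made with Python 3.11.15, pandas 2.3.3 and matplotlib 3.10.9. Fragment numbers are estimates from the steps between low values (80.3% to 82.6% of these within 0.15 of a whole number), so no counting interval was made.

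Members and lists were chosen with earlier results of these data known. Named loci were the highest 10, the widest, those at the limits, the leaders of each list and, on each side of the control range, the 8 with the smallest p; others are said to be chosen after their values were seen. Some loci that this rule or a list would name are not reported here. The labels do not say that libraries of a group came from separate cultures, so p-values measure only the spread between these libraries. Alternatives were other filters, pseudocounts, scalings, widths, limma settings and leaving out each library.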

Additional observations from a re-analysis of the deposited data

How the results depend on the processing

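No long locus was called under any of the settings run, while calls over all loci ran from 0 to 134 (134 without knockdown B, 13 without knockdown A). The number of long loci whose knockdowns both fell outside the controls was 35 of 99, became 81 of 283 (28.6%) with no filter on level and 19 of 52 (36.5%) at a mean of at least 5 FPKM, against 28.9% and 31.1% of all loci, and ran from 57 to 83 of 99 (57.6% to 83.8%, against 57.5% to 79.1% of all loci) when 1 library was left out, where fewer libraries make the criterion looser. Detection at 1 FPKM or more in place of above 0 gave 100 loci in control A, 96 in control B and 103 in knockdown B. The median log2 fold change, -0.07, ran from -0.19 to 0.02 as libraries were left out, was 0.07 after quantile normalization, and differed by less than the spread between library medians (SD 0.18) in each setting. Wider or looser sets gave 85 of 260 loci outside the range at 200 kb (32.7%), 8 of 22 at 500 kb (36.4%) and 57 of 170 with shared intervals (33.5%), against 31.9% of all loci, and, chosen after seeing the data, 37 of 101 (36.6%, against 31.7%) at a mean of at least 20 estimated fragments.

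With the replicate letter as a block, 0 long loci and 7 of all loci were called and the median stayed at -0.07. The deviations of libraries with the same letter had a correlation of -0.0683 over loci. With 2 libraries a group this cannot show whether same-letter libraries were paired. The labels give only the letter, and the pairing was not used.

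Depth and 2 libraries a group limit the comparison: expressed long loci had a median of 100.1 estimated fragments, against 131.6 over all loci tested, and the fold changes of most of the named loci depend on knockdown A.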
